A study of Mus musculus with 16 samples.

Results

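The stress hormones GDF15 and FGF21 and 3 parts of the FGF21 receptor system (the coreceptor KLB and the receptors FGFR1 and FGFR4) were followed in mouse liver, as the 5 genes Gdf15, Fgf21, Klb, Fgfr1 and Fgfr4 out of 27288 genes in the deposited table. The members were found by symbol, by a rule that uses no measured value, although the genes were picked with earlier results of these data known. The mice were C57BL/6, aged 8 to 10 weeks, and whole-liver RNA was sequenced. Mice labelled as liver-specific Dnm1l knockouts (KO) and wild types (WT) received either ethanol by the Gao-Binge model, in which an ethanol-containing liquid diet ends with a single large dose, or a control diet. This gave 4 groups of 4 libraries (KO ethanol, WT ethanol, KO control and WT control), 16 libraries in all. Dnm1l encodes DRP1, the GTPase that divides mitochondria. The labels name neither the promoter that drives the recombinase nor the deleted exons.

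GDF15 is a distant member of the TGF-beta family that stressed cells release, and it acts on a receptor in the hindbrain to lower food intake. FGF21 is an endocrine fibroblast growth factor made mainly by the liver, and it needs KLB beside an FGF receptor, chiefly FGFR1, to signal. KLB with FGFR4 is the hepatocyte receptor for the gut hormone FGF15, which represses bile acid synthesis. ATF4, the transcription factor of the integrated stress response, is known to act on the genes of both hormones, and PPARA acts on Fgf21.

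Both hormone genes lie on the minus strand of GRCm38. Gdf15 (ENSMUSG00000038508) spans 70629393 to 70632456 on chromosome 8, and Fgf21 (ENSMUSG00000030827) spans 45613886 to 45615490 on chromosome 7. RefSeq (GRCm38.p6) lists 1 start for Fgf21 and 2 for Gdf15, at 70632456 and 70632095. Shown are the 250 bases before the Fgf21 start and before the outer Gdf15 start. The outer Gdf15 start is also the end of the gene as given above. Both windows were picked for display after the values and the windows had been seen. They are written 5′ to 3′ on the gene's strand, and capitals mark matches to the motifs searched.

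Gdf15, chr8:70632457-70632706, minus strand: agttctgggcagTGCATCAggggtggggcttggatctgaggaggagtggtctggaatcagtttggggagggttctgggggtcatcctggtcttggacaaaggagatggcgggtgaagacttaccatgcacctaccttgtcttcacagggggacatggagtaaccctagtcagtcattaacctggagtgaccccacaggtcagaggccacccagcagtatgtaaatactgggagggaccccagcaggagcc

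Fgf21, chr7:45615491-45615740, minus strand: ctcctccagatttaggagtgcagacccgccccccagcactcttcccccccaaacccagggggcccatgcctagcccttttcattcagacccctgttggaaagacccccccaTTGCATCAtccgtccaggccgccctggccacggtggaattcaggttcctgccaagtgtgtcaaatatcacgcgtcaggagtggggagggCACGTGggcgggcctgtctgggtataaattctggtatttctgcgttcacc

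Both strands were searched for the CHOP and ATF4 type motif TGATGNAA, for the shorter form TGATGCA (added after the windows had been read), for the E-box CACGTG and for the direct repeat that PPARA reads. The Fgf21 window held TGATGNAA on the opposite strand 139 bases before the start, an overlapping TGATGCA at 138 bases, and CACGTG at 50 bases. The outer Gdf15 window held TGATGCA on the opposite strand 238 bases before the start, and no TGATGNAA or CACGTG. The window before the inner Gdf15 start, searched but not shown, held CACGTG 83 bases before that start and no TGATGCA. Over 32851 RefSeq windows of the same kind, TGATGNAA occurred in 3.45%, TGATGCA in 2.68%, CACGTG in 6.02% and the direct repeat in 0.0335%. Since TGATGCA was added after the windows had been read, its share does not measure chance for these windows. A match is a run of letters and was not tested as a binding site.

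The libraries held 11425136 to 13864862 reads each. Values below are normalised reads, which are reads divided by the library's size factor, and fold changes come from limma on log2(normalised reads + 1) fitted over all 16 libraries and 13256 genes, with Benjamini-Hochberg adjustment over all of them and a threshold of 0.05. The labels do not say that each library is a separate mouse, so p-values measure the spread between these libraries. Total Dnm1l reads are no check of the labels where only some exons are deleted, and they averaged 803 ± 99.3 in KO ethanol, 743 ± 38.4 in WT ethanol, 642 ± 72.7 in KO control and 663 ± 56.1 in WT control (SD, n = 4 each), with no call between genotypes on either diet. The 9 hepatocyte markers in the table summed to 1201890 normalised reads or more in every library. Their sums ran over 1341350 to 1515150 in KO control and 1643480 to 1929120 in WT control, without overlap. In libraries 1 to 4 they were 1703390, 1755790, 1201890 and 1212810 in KO ethanol. In WT ethanol they were 2355190, 2186180, 1646810 and 1529550. In both ethanol groups the first pair lay above the last pair. The part of these differences in the Klb and Fgfr4 values was not tested. KO ethanol library 1 held transcripts of exocrine pancreas, with 12451 normalised reads summed over 13 marker genes against 98.2 to 320.1 in the other libraries. KO ethanol library 4 stood apart in the blood markers, at 6166 against 1122 to 2970 elsewhere. Changes in bulk RNA cannot tell fewer cells of a type from less RNA per cell.

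**Figure D1:**
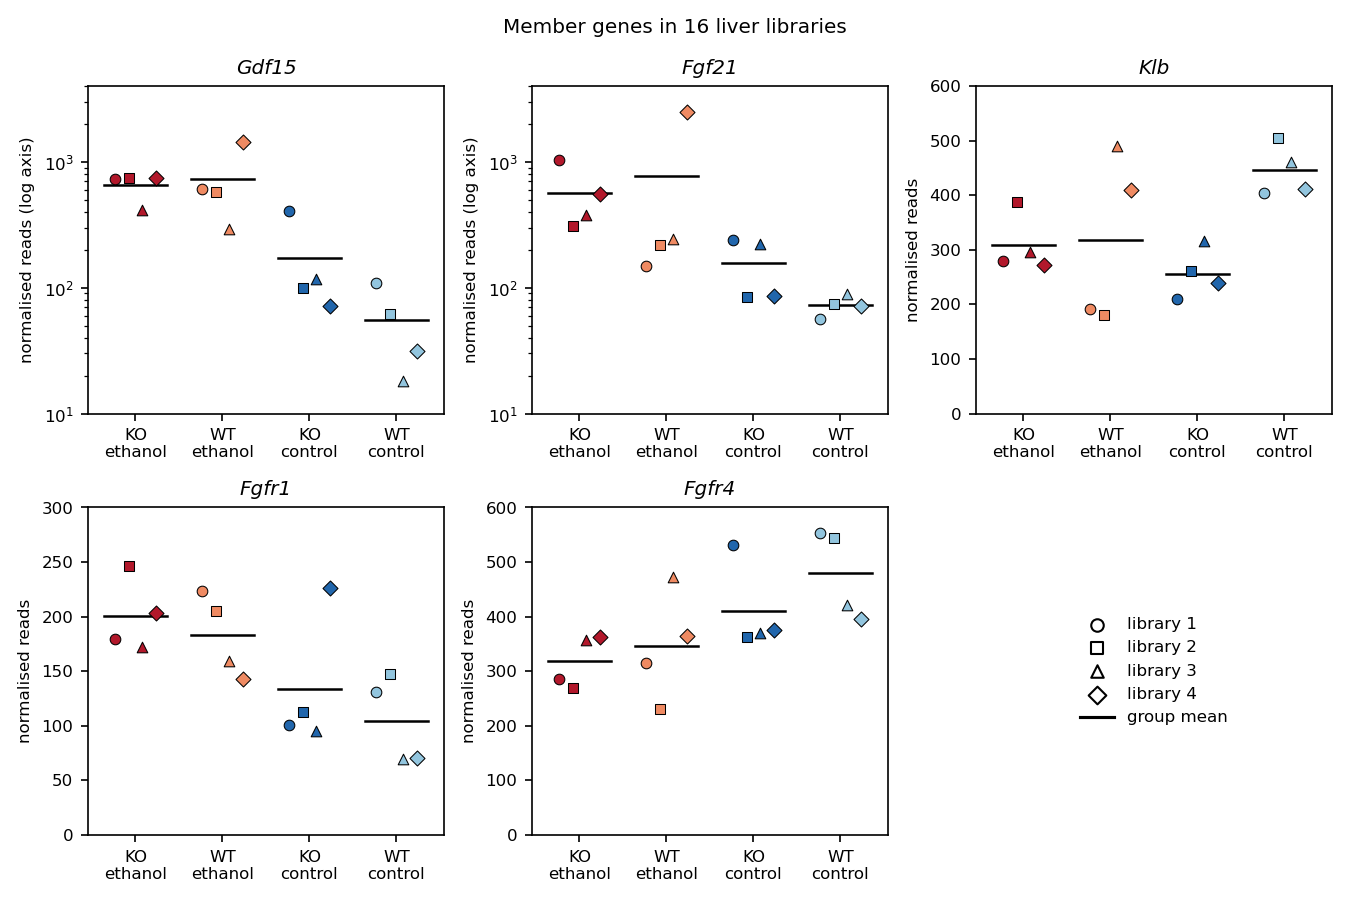
Normalised reads of the 5 genes in each of the 16 libraries, with groups along the x axis, 1 point per library, the shape giving the library number and the bar the group mean of 4; the axes of Gdf15 and Fgf21 are logarithmic. The ethanol libraries of both hormone genes lie above the control libraries of the same genotype, and WT ethanol library 4 is the highest for both, at 2497 normalised reads for Fgf21.

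On ethanol, 4 of the 5 genes passed the test in WT livers, where 38% of all 13256 genes did so, and 1 passed in KO livers, where 19.2% of all genes did so. The 3 that rose in WT livers were Gdf15, Fgf21 and Fgfr1 (18.9% of all genes rose), and the 1 that fell was Fgfr4 (19% of all genes fell). In KO livers the gene that rose was Gdf15 (10.2% of all genes rose). No gene of the 5 passed the test between KO and WT livers on ethanol (9.88% of all genes did) or on the control diet (11.6% did), or in the difference of the ethanol effects (0.347% did). At an unadjusted p under 0.05 these last comparisons held 0, 2 and 1 of the 5 genes, against 3246, 3464 and 1772 of all genes. Under DESeq2 the counts were 0, 1 and 0 of 5, and under edgeR they were 0, 0 and 0.

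Gdf15 had the largest estimated ethanol response of the 5 genes in both genotypes. It reached 727, 749, 412 and 745 normalised reads in KO ethanol libraries 1 to 4, against 405, 99.4, 117 and 72.0 in KO control libraries. In WT ethanol libraries it reached 604, 579, 289.8 and 1439.8, against 109, 61.6, 18.1 and 31.1 in WT control libraries. The ethanol and control groups did not overlap in either genotype, although KO control library 1 came close to the lowest KO ethanol library.

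Gdf15 rose with ethanol by 2.23 ± 0.56 on the log2 scale in KO livers (limma adjusted p = 0.0107), a 4.68-fold change with a 95% interval of 2.06 to 10.6. In WT livers the rise was 3.77 ± 0.56 (limma adjusted p = 8.52e-05), a 13.6-fold change with an interval of 6.01 to 30.9. The error after ± is the standard error for a log2 difference and the SD over 4 libraries for a group mean. An exact two-sided permutation test gave p = 0.0286 in each genotype, the smallest that 4 against 4 libraries can give. The groups without overlap in this direction were 11.7% of all genes in KO livers and 17.7% in WT livers. Without KO ethanol libraries 1 and 4 together the KO value was 2.02, with an adjusted p of 0.107.

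Between genotypes on ethanol, Gdf15 averaged 658 ± 164 normalised reads in KO livers and 728 ± 495 in WT livers (SD, n = 4 each). The estimated difference was 0.05 on the log2 scale, with an interval from -1.13 to 1.23 (limma adjusted p = 0.976), so differences of about that size in either direction were not distinguishable. On the control diet Gdf15 averaged 173 ± 156 in KO livers and 55.1 ± 40.6 in WT livers (SD, n = 4 each). The difference of 1.59 ± 0.56 missed the threshold (limma adjusted p = 0.0751, exact permutation p = 0.0857), and 2 of 4 KO control libraries lay above every WT control library. Without WT control library 1 it was 2.02 with an adjusted p of 0.0373. Without KO control library 1, the high one, it was 1.07 with an adjusted p of 0.215, and the KO control mean was 96.1 ± 22.6 (SD, n = 3). The ethanol effect was lower by 1.54 ± 0.79 in KO than in WT livers, a difference that did not pass the test (limma adjusted p = 0.415).

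Macrophage markers differed between genotypes, where Gdf15 did not pass the test. The summed level of 12 such markers ran over 6502 to 8244 normalised reads in KO ethanol libraries, 1199 to 1769 in WT ethanol, 7499 to 11934 in KO control and 3191 to 7218 in WT control. On ethanol 12 of 12 were higher in KO than in WT livers, and on the control diet 8 of 12. Of all genes, 9.88% and 11.6% were called in these comparisons, in either direction. With ethanol in WT livers, where Gdf15 rose, 10 of 12 fell and none rose, and in KO livers, where Gdf15 also rose, 1 fell and none rose. Over all genes 38% were called with ethanol in WT livers and 19.2% in KO livers. No macrophage marker was at 0. Their part in the Gdf15 values was not tested.

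Fgf21 had 1028, 312, 378 and 554 normalised reads in KO ethanol libraries 1 to 4, against 238, 84.3, 224 and 86.4 in KO control libraries. In WT ethanol libraries it had 149, 219, 241.5 and 2497, against 56.2, 73.6, 88.5 and 71.6 in WT control libraries. Ethanol and control libraries did not overlap in either genotype, as for 11.7% of all genes in KO and 17.7% in WT livers in this direction. WT ethanol library 4 was above every other library, and the remaining 3 WT ethanol libraries lay below every KO ethanol library.

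In WT livers Fgf21 rose with ethanol by 2.37 ± 0.65 on the log2 scale (limma adjusted p = 0.00889), a 5.18-fold change with an interval of 1.99 to 13.5. Without WT ethanol library 4 it was 1.46 and still past the threshold. In KO livers the estimate was 1.85 ± 0.65, 3.60-fold with an interval of 1.39 to 9.36, and just missed the threshold (limma adjusted p = 0.0561). The exact permutation p was 0.0286 in both genotypes. The KO value passed without WT ethanol library 1 (adjusted p = 0.0436) or 4 (adjusted p = 0.00316). In those 2 refits the estimate stayed at 1.85, and only the spread shared by all groups and the adjustment changed. It also passed without KO control library 3 (adjusted p = 0.0471), and when only the KO groups were fitted (limma adjusted p = 0.0119). The lowest estimate over all settings was 1.28, without KO ethanol libraries 1 and 4 together. Over all settings the highest adjusted p was 0.347.

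KO ethanol library 1, the one with pancreas transcripts, had the highest Fgf21 level of its group. Exocrine pancreas is itself known to express Fgf21. Without that library KO ethanol averaged 415 ± 125 normalised reads (SD, n = 3), and the ethanol estimate in KO livers was 1.51 with an adjusted p of 0.156. The 3 other KO ethanol libraries, at 98.2 to 121.6 reads summed over the pancreas markers, still lay above every KO control library for Fgf21. The part of pancreas RNA in the library 1 value was not tested.

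Between genotypes on ethanol, Fgf21 averaged 568 ± 323 normalised reads in KO livers and 776 ± 1147 in WT livers (SD, n = 4 each). The log2 difference was 0.44 ± 0.65 (limma adjusted p = 0.737), with an interval from -0.94 to 1.82. The sign on the log2 scale was opposite to that of the means. Without WT ethanol library 4 the difference was 1.35 with an adjusted p of 0.0459. With edgeR and DESeq2, on all libraries, it was -0.44 and -0.45. On the control diet Fgf21 averaged 158 ± 84.3 in KO livers and 72.5 ± 13.2 in WT livers (SD, n = 4 each), a difference of 0.96 ± 0.65 that missed the threshold (limma adjusted p = 0.383). The difference of the ethanol effects was -0.52 ± 0.92 (limma adjusted p = 0.842).

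**Figure D2:**
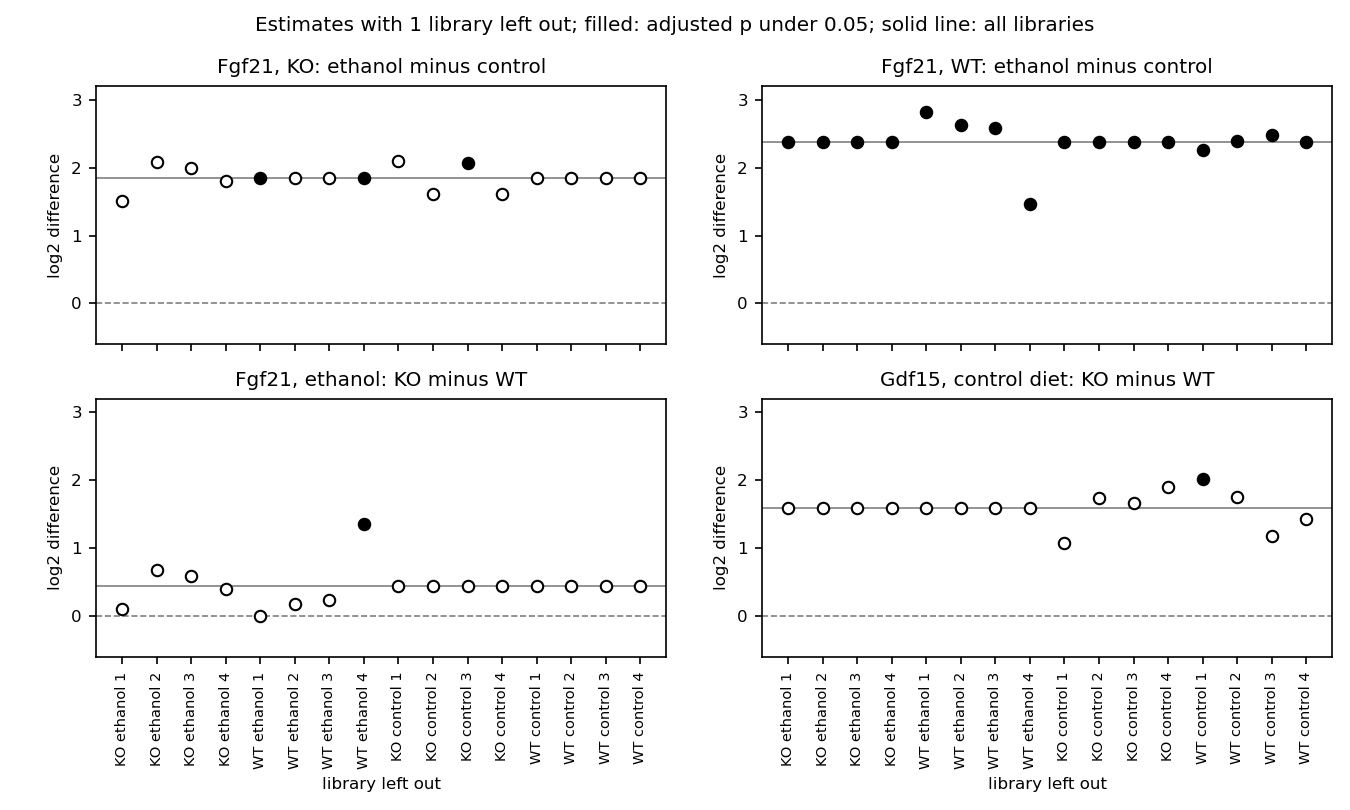
Log2 difference for 4 comparisons of Fgf21 and Gdf15, y axis, with the library named on the x axis left out; filled points have a limma adjusted p under 0.05 and the solid line is the value with all libraries. Leaving out WT ethanol library 4 moves the Fgf21 difference between genotypes on ethanol to 1.35, and leaving out WT control library 1 moves the Gdf15 difference on the control diet to 2.02.

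Over the 16 libraries Gdf15 and Fgf21 had a Pearson r of 0.81 on the log2 scale. This is a description, since the libraries share 4 groups. The 5 genes most like Gdf15 were Jund (r 0.956), Trib3 (0.934), Mark2 (0.930), Gpat3 (0.930) and Rnps1 (0.928). The 5 most like Fgf21 were Ppp1r15a (0.919), Pnrc2 (0.919), Cul2 (0.905), Areg (0.898) and Ddit3 (0.883). Trib3 is a pseudokinase induced by ATF4 and CHOP, and Ddit3 encodes CHOP itself. Ppp1r15a encodes GADD34, the phosphatase subunit that reverses phosphorylation of eIF2alpha, and Gpat3 encodes an enzyme of triglyceride synthesis.

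Klb RNA had its highest group mean in WT control livers, though WT ethanol libraries 3 and 4 lay within the range of that group. The gene Klb (ENSMUSG00000029195, chromosome 5, 65348314 to 65384007, plus strand) had 280.3, 388, 295 and 272 normalised reads in KO ethanol libraries and 192, 181, 489.5 and 409 in WT ethanol libraries. It had 209, 260.4, 316 and 239.5 in KO control libraries and 404, 505, 462 and 412 in WT control libraries. Every KO control library lay below every WT control library, and the WT ethanol libraries split into a low pair (1 and 2) and a high pair (3 and 4).

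On the control diet the Klb difference between KO and WT livers was -0.81 ± 0.26 on the log2 scale, 0.572-fold with an interval of 0.393 to 0.831. Its adjusted p of 0.0500023 (limma) lay on the threshold and did not pass, while the exact permutation p was 0.0286. The groups without overlap in this direction were 8.72% of all genes. The call was made by DESeq2 (adjusted p = 0.0211), by limma on the control groups alone (adjusted p = 0.00585), and without any 1 of the WT ethanol libraries or without KO control library 3 (adjusted p from 0.0199 to 0.0461). Without a WT ethanol library the estimate stayed at -0.81, and only the shared spread and the adjustment changed.

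Klb did not pass the test in the other comparisons. With ethanol it differed by 0.27 ± 0.26 in KO livers (limma adjusted p = 0.480) and by -0.62 ± 0.26 in WT livers (limma adjusted p = 0.0658). The WT value was -1.25 with ethanol libraries 1 and 2 alone and 0.01 with 3 and 4 alone. These pairs were set after the data had been seen and are the low and the high Klb pair. Their refits therefore restate the split and are no test of it. The WT value passed without WT ethanol library 3 (adjusted p = 0.00649) or 4 (adjusted p = 0.0279), each from the high pair. Between genotypes on ethanol it differed by 0.08 ± 0.26 (limma adjusted p = 0.886). The difference of the ethanol effects was 0.89 ± 0.36 (limma adjusted p = 0.304).

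Fgfr1, the gene of the main partner of KLB for FGF21 (ENSMUSG00000031565, chromosome 8, 25513654 to 25575718, plus strand), was higher on ethanol in both genotypes by its means. It had 180.0, 246, 173 and 203 normalised reads in KO ethanol libraries, against 100.5, 113, 94.8 and 226 in KO control libraries. In WT ethanol libraries it had 224, 205, 159.8 and 143, against 131, 147, 69.2 and 70.6 in WT control libraries. KO control library 4 lay among the ethanol libraries, and WT ethanol library 4 lay below WT control library 2.

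Fgfr1 rose with ethanol in WT livers by 0.86 ± 0.28 on the log2 scale, 1.82-fold with an interval of 1.21 to 2.73 (limma adjusted p = 0.0225, exact permutation p = 0.0571). The call was lost without WT control library 3 or 4 or WT ethanol library 1 or 2, with adjusted p from 0.0576 to 0.0778. In KO livers the estimate of 0.66 ± 0.28 missed the threshold (limma adjusted p = 0.105) and passed without KO control library 4, at 0.95 with an adjusted p of 0.0169. The genotype differences of 0.14 ± 0.28 on ethanol and 0.34 ± 0.28 on the control diet missed the threshold (limma adjusted p = 0.809 and 0.489). The antisense gene Gm16159 shares 164 exon bases with Fgfr1 and averaged 0.111 normalised reads.

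Fgfr1 is also abundant in adipocytes, with Klb. Of 8 adipocyte markers, 4 were tested; 2 rose and 1 fell with ethanol in each genotype. Their summed level was 1570 to 3179 normalised reads in KO ethanol libraries, 1458 to 2351 in WT ethanol, 363 to 507 in KO control and 336 to 457 in WT control. Cidec, a lipid droplet gene that fatty hepatocytes also express, made up most of it on ethanol. The defining markers Adipoq, Plin1 and Lep were at 0 in all libraries but KO ethanol 1 and 4. Of 10 sinusoidal endothelium markers, 6 rose and 1 fell with ethanol in WT livers, and 3 rose and 0 fell in KO livers. Of 10 stellate cell and fibroblast markers, the counts were 4 and 1 in WT and 3 and 0 in KO livers. Beside these cell type counts, 38% of all genes were called with ethanol in WT and 19.2% in KO livers. Endothelium sums were 3276 to 4032 in WT ethanol against 2240 to 2799 in WT control. In KO livers they were 3066 to 3666 against 2238 to 3111. The part of these cells in the Fgfr1 values was not tested.

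Fgfr4 (ENSMUSG00000005320, chromosome 13, 55152640 to 55168759, plus strand) was lower on ethanol in both genotypes by its means. It had 285, 269.7, 358 and 363 normalised reads in KO ethanol libraries, against 530.5, 364, 369 and 376 in KO control libraries. In WT ethanol libraries it had 316, 231, 473 and 364, against 553, 545, 422 and 396.5 in WT control libraries. The KO groups did not overlap, by a margin of under 1 normalised read (11.3% of all genes were lower without overlap), and in the WT groups ethanol library 3 lay within the control range.

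The fall of Fgfr4 in WT livers was -0.50 ± 0.19 on the log2 scale, 0.707-fold with an interval of 0.534 to 0.936. It passed narrowly (limma adjusted p = 0.0489), and the call was lost with edgeR (adjusted p = 0.0700), DESeq2 (adjusted p = 0.0536) and without any 1 of 13 of the 16 libraries. Only the omission of WT control library 4, WT ethanol library 3 or KO control library 1 left it. In KO livers the estimate was -0.35 ± 0.19 (limma adjusted p = 0.204, exact permutation p = 0.0286). Fgfr4 differed between genotypes by -0.08 ± 0.19 on ethanol (limma adjusted p = 0.842) and by -0.23 ± 0.19 on the control diet (limma adjusted p = 0.50).

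**Figure D3:**
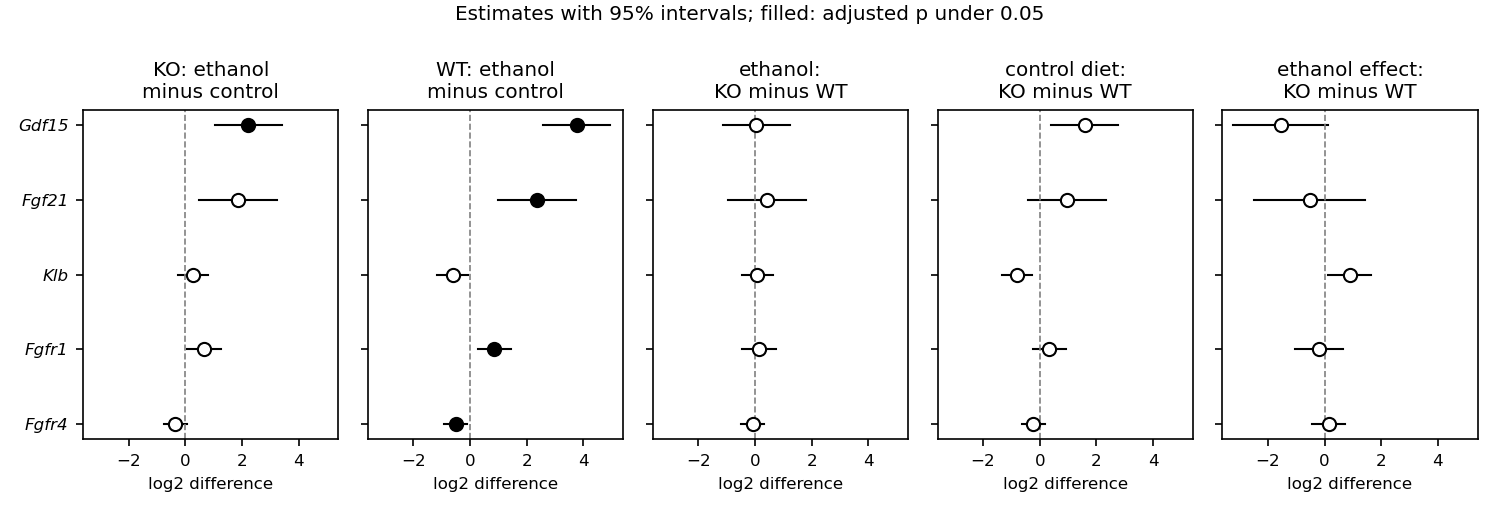
Log2 differences of the 5 genes, x axis, in the 5 comparisons, with 95% intervals as lines; filled points have a limma adjusted p under 0.05. Gdf15 is filled in both ethanol comparisons, at 2.23 in KO and 3.77 in WT livers, and no point is filled between genotypes.

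Levels per kilobase of exon put the hormones above the receptors on ethanol. In KO ethanol livers the mean normalised reads per kb were 597 for Fgf21, 355 for Gdf15, 90.04 for Fgfr4, 67.9 for Klb and 20.3 for Fgfr1. WT ethanol livers had the same order, at 816, 393, 97.6, 69.8 and 18.5, but the order of the hormones there rested on library 4. Without it WT ethanol livers had 214 for Fgf21 and 265 for Gdf15 per kb, and the Fgf21 mean was 203 normalised reads against 776 with it. The libraries of Fgf21 and Gdf15 overlapped in each ethanol group, as did those of Fgfr4 and Klb, and the other neighbours did not.

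Per kb, KO control livers had 166 for Fgf21, 116 for Fgfr4, 93.6 for Gdf15, 56.3 for Klb and 13.5 for Fgfr1, and only Klb and Fgfr1 did not overlap as neighbours. Without KO control library 1 Gdf15 had 51.9 per kb there, below Klb at 59.8. WT control livers began with Fgfr4 at 135, then Klb at 98.0, Fgf21 at 76.2, Gdf15 at 29.7 and Fgfr1 at 10.6. Klb and Fgf21 overlapped there, as did Gdf15 and Fgfr1.

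The genes most like the receptor parts over 16 libraries were Mtmr7 (r 0.875), Dennd5b (0.865) and Adal (0.857) for Klb, Cttnbp2nl (0.907), Flna (0.874) and Cep83 (0.869) for Fgfr1, and Lgr5 (0.900), Mettl8 (0.893) and Vwce (0.883) for Fgfr4. Lgr5 is a WNT target of pericentral hepatocytes, and Flna encodes the actin crosslinker filamin A.

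Of 22 regulators of Fgf21 and Gdf15, 8 rose and 1 fell with ethanol in KO livers, and 13 rose and 2 fell in WT livers. The shares called over all genes were 19.2% in KO and 38% in WT livers. The median log2 differences of the regulators were 0.38 and 0.71, beside -0.01 over all genes in both. Atf4 rose with ethanol in WT livers by 0.91 on the log2 scale (limma adjusted p = 0.000255). In KO livers it rose by 0.52 (limma adjusted p = 0.0262), a call lost without KO ethanol library 1 or 4 or KO control library 1, 2 or 4. Trp53, the gene of p53, did not pass in any comparison. Mlxipl, the gene of the carbohydrate sensor ChREBP, fell with ethanol by 1.04 in KO and by 0.95 in WT livers (limma adjusted p = 0.000194 and 0.000122). Between genotypes it was lower in KO livers on ethanol (log2 difference -0.57, limma adjusted p = 0.0191, lost without WT ethanol library 4 or KO ethanol library 1). On the control diet the difference was -0.48 (limma adjusted p = 0.0410), a call lost without any 1 control library but WT control 2, and without KO ethanol 1, 3 or 4. On all libraries that call was also lost with edgeR (adjusted p = 0.0593) and with limma after TMM scaling (adjusted p = 0.0534).

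Of 20 tested targets of the integrated stress response, 11 rose and 1 fell with ethanol in KO livers, and 16 rose and none fell in WT livers. Called over all genes were 19.2% in KO and 38% in WT livers. The median log2 differences of the targets were 1.22 and 2.19. Without KO ethanol libraries 1 and 4, a setting in which the calls over all genes fell to 1003 against 2543, the KO count was 7 that rose and the median was 1.12. Mthfd2, a mitochondrial folate enzyme, rose by 1.59 in KO and by 3.10 in WT livers, and Trib3 by 2.16 in KO and by 3.42 in WT livers. Ddit3 rose by 2.31 in WT livers (limma adjusted p = 0.000755), while its KO estimate of 1.23 missed the threshold (limma adjusted p = 0.0633). The KO estimate passed, at an unchanged 1.23, without WT ethanol library 3 or 4.

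WT ethanol library 4, the highest for Gdf15 and Fgf21, was also the highest library of all 16 for Atf4, Ddit3, Trib3, Ppp1r15a and Dusp6. Ddit3 had 616 to 737 normalised reads in KO ethanol libraries and 159.8 to 1577 in WT ethanol libraries. Its difference between genotypes on ethanol was 0.73 (limma adjusted p = 0.335) and 1.38 without that library (adjusted p = 0.00244). Over all genes, calls in this comparison were 1310 (9.88%) with all libraries and 848 to 1685 over the 16 refits without 1 library. Without WT ethanol library 4, 5 of the 20 stress targets were higher in KO than in WT livers on ethanol, against 2 with it. A further 2 were lower either way. One of these, Vldlr, a lipoprotein receptor, was lower in KO livers by a log2 difference of -1.23 on ethanol (limma adjusted p = 0.00732), a call lost without KO ethanol libraries 1 and 4.

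Of the 20 stress targets on the control diet, 7 were higher and 1 was lower in KO than in WT livers, with a median difference of 0.68. This comparison called 11.6% of all genes. Ddit3 was higher by 1.82 (limma adjusted p = 0.0144), Atf3, a stress-induced repressor, by 3.64, and Slc7a11, the cystine transporter, by 5.19. Nupr1, a stress cofactor, was higher by 2.90 on ethanol and by 3.06 on the control diet. Atf4 itself differed by 0.15 on the control diet (limma adjusted p = 0.592).

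**Figure D4:**
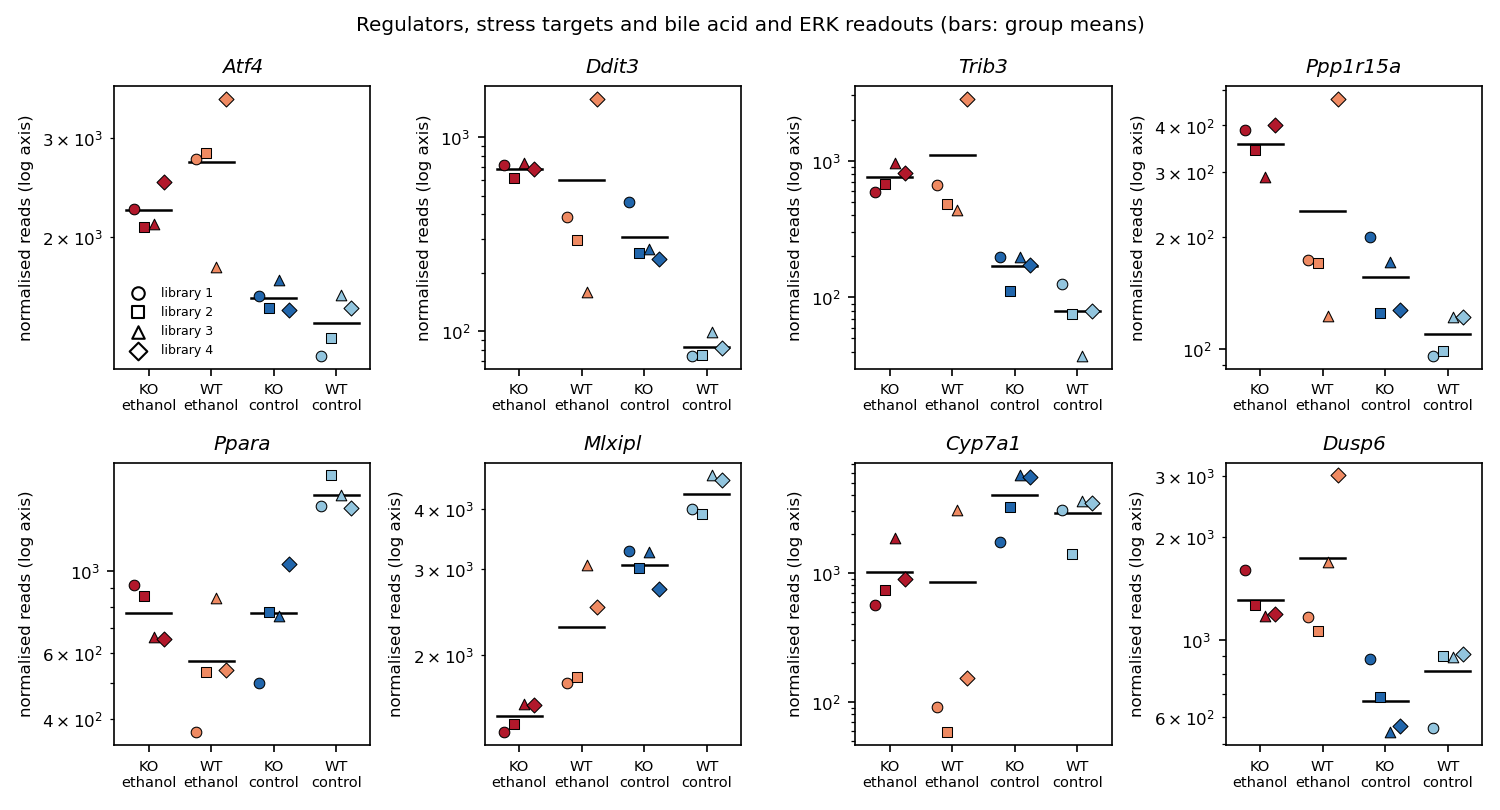
Normalised reads of 8 regulators, stress targets and readouts in the 16 libraries on logarithmic y axes, with groups on the x axis, 1 point per library, shapes for library numbers and bars for the means of 4. WT ethanol library 4 is the highest library for Atf4, Ddit3, Trib3, Ppp1r15a and Dusp6, and Cyp7a1 runs from 58.3 to 3091 within the WT ethanol group. Trib3, Ppp1r15a and Ddit3 are among the genes most like Gdf15 or Fgf21 over the same libraries, so their peak there is not independent.

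Ppara, the fasting receptor that acts on Fgf21, averaged 772 ± 133 normalised reads in KO ethanol, 572 ± 199 in WT ethanol, 768 ± 223 in KO control and 1592 ± 151 in WT control livers (SD, n = 4 each). It fell with ethanol in WT livers by 1.53 on the log2 scale (limma adjusted p = 6.74e-05) and differed by 0.04 in KO livers (limma adjusted p = 0.922), an estimate whose sign turned without KO control library 1 or KO ethanol library 1 or 2. On the control diet it was lower in KO livers by 1.09 (log2 difference -1.09, limma adjusted p = 0.00431). The difference of the ethanol effects was 1.57 (limma adjusted p = 0.0417), a call lost with edgeR and without any 1 of 14 libraries, all but WT ethanol library 3 and KO control library 4. Of 18 PPARA targets, 11 rose and 1 fell with ethanol in KO livers, and 7 rose and 3 fell in WT livers. Beside them, 19.2% of all genes were called in KO and 38% in WT livers. Without KO ethanol libraries 1 and 4 the KO count was 7 that rose, and the median was 0.62 against 0.68 with them. In that setting calls over all genes fell to 1003 from 2543.

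Of 16 p53 targets, 5 rose and none fell with ethanol in KO livers, and 8 rose and 1 fell in WT livers. The calls over all genes were 19.2% in KO and 38% in WT livers. Without KO ethanol libraries 1 and 4, where calls over all genes fell to 1003 from 2543, the KO count was 2. The median was 0.38 against 0.34 with them. Cdkn1a, the gene of the cell cycle inhibitor p21, rose by 3.39 in KO and by 6.93 in WT livers, and on the control diet it was higher by 2.84 in KO than in WT livers. The difference of its ethanol effects was -3.53 (limma adjusted p = 0.0356), lost with edgeR (adjusted p = 0.0546) and without any 1 of 11 libraries, all but WT control 3, WT ethanol 3 and 4, KO control 2 and KO ethanol 2.

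Downstream of the FGF receptors, 11 of 14 feedback and ERK response genes rose with ethanol in KO livers and 13 of 14 in WT livers, and none fell. Over all genes 10.2% rose in KO and 18.9% in WT livers. Without KO ethanol libraries 1 and 4, where calls over all genes fell to 1003 from 2543, the KO count was 6. The median was 0.98 against 1.04 with them. These genes respond to many growth factors and stresses. Dusp6, an ERK phosphatase, rose by 0.98 in KO and by 0.99 in WT livers (limma adjusted p = 0.0145 and 0.00705). Egr1, an immediate early gene, rose by 3.02 in KO and by 2.66 in WT livers. Spry4, a feedback inhibitor, rose in KO livers by 1.48 (limma adjusted p = 0.0190), a call lost without KO ethanol library 2 or KO control library 1 or 3, and on the control diet it was lower in KO livers (log2 difference -2.02, limma adjusted p = 0.00452). Spred2, another inhibitor of the pathway, was lower in KO than in WT livers on ethanol (log2 difference -0.54, limma adjusted p = 0.0187), a call lost without WT ethanol library 2 or 4 or KO ethanol library 3.

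Of 7 bile acid genes on the FGFR4 axis, none passed limma's test with ethanol in KO livers (2 had an unadjusted p under 0.05, and 1 fell under edgeR and under DESeq2), and 3 fell in WT livers. In KO livers 19.2% of all genes were called, and in WT livers 19% of all genes fell. Cyp7a1, the rate-limiting enzyme of bile acid synthesis, averaged 1019 ± 586 normalised reads in KO ethanol, 848 ± 1495 in WT ethanol, 4056 ± 1907 in KO control and 2903 ± 1022 in WT control livers (SD, n = 4 each). Its fall in WT livers was -3.59 on the log2 scale (limma adjusted p = 0.00359), lost with edgeR (adjusted p = 0.137) and DESeq2 (adjusted p = 0.136). In KO livers the value was -1.996 (limma adjusted p = 0.112), which passed, itself unchanged, without WT ethanol library 3. Between genotypes on ethanol the difference was 2.02 (limma adjusted p = 0.156), and 3.28 without that library (adjusted p = 0.000188). Cyp8b1, the 12-alpha hydroxylase, fell by 1.15 in WT livers (limma adjusted p = 0.0129). Nr0b2, the gene of the repressor SHP, fell by 2.69 in WT livers, and on the control diet it was lower in KO livers (log2 difference -2.02, limma adjusted p = 0.0365), a call lost with edgeR, DESeq2 and without any 1 of WT control 1, 2 and 4 and KO control 3 and 4.

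Of 6 tested FGF receptor and coreceptor genes, which include Klb, Fgfr1 and Fgfr4, 1 fell with ethanol in KO livers, and 1 rose and 3 fell in WT livers. The all-gene shares called were 19.2% in KO and 38% in WT livers. Fgfrl1, a receptor without a kinase domain, fell by 1.06 in KO and by 0.84 in WT livers, and Fgfr2 fell by 1.28 in WT livers. Fgfrl1 was lower in KO than in WT livers on ethanol (log2 difference -0.59, limma adjusted p = 0.0288), a call lost with the replicate block on the ethanol groups alone (adjusted p = 0.0824), and without WT ethanol library 3 or 4 or any 1 KO ethanol library. Fgf1, the ligand that binds every FGF receptor, rose by 0.93 in KO livers and by 0.61 in WT livers, the WT call being lost without WT control library 1 or WT ethanol library 2. Fap, the protease that inactivates FGF21, had 0 to 8.29 normalised reads and was under the filter.

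Of 5 tested genes for GDF15 processing and turnover, 4 rose with ethanol in each genotype. Among all genes 10.2% rose in KO and 18.9% in WT livers. Without KO ethanol libraries 1 and 4 the KO count was 2 (median 0.33 against 0.32 with them). Calls over all genes fell there to 1003 from 2543. Mmp14, a membrane metalloprotease, rose by 1.07 in KO and by 1.201 in WT livers. Furin, a proprotein convertase, rose by 0.30 in KO livers (limma adjusted p = 0.0180) and by 0.53 in WT livers, the KO call being lost without KO ethanol library 2 or 4 or KO control library 2 or 4. On ethanol Furin and Pcsk6, a related convertase, were lower in KO than in WT livers (log2 differences -0.30 and -0.34, limma adjusted p = 0.0289 and 0.0313). Both calls were lost without any 1 of WT ethanol 1, 2 and 4 and KO ethanol 1 and 3, and that of Pcsk6 also without KO ethanol 4. On all libraries both were lost with edgeR (adjusted p = 0.0571 for Furin and 0.0505 for Pcsk6). They were also lost in limma with no filter (adjusted p = 0.0794 and 0.0640). With the replicate block the Furin call was lost too (adjusted p = 0.0569 over all groups and 0.0601 on the ethanol groups alone).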

How the data were processed

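Liver RNA was sequenced as 75 bp single reads, per the labels' protocols. The authors' deposited values are a normalised read signal per Ensembl gene; HISAT2 2.1.0.13, HTSeq, edgeR and GRCm38 are named in the submitters' processing notes, and the strand setting and annotation release are not stated there. The values are whole reads divided by a size factor of 0.814 to 1.263. These factors equal median-of-ratios factors of the recovered reads, with a largest difference of 1.48e-10. Such a factor is the median over genes of a library's reads against the geometric mean of all libraries. Multiplying the values by their factors gave 100% whole numbers within 0.01 read. Libraries of a group differed beyond sampling noise (mean chi-square per gene 10.9 to 118). Each was counted as 1 sample, although such spread does not show that each is a separate mouse. No column was left unused (0).

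Genes with a mean of at least 10 normalised reads were tested with limma 3.58.1 (R 4.3.3) on log2(value + 1), 4 group means, with a variance trend and an adjusted p threshold of 0.05. The test was checked on simulated data. On the recovered reads, edgeR 4.0.16 (quasi-likelihood) and DESeq2 1.42.0 called 2679 and 3028 genes for ethanol in KO livers, 5013 and 5150 in WT livers, 1281 and 1704 between genotypes on ethanol, and 1525 and 1924 on the control diet. Exact permutation tests used scipy 1.17.1. Same-numbered KO and WT ethanol libraries deviated together (r 0.102 to 0.246, each over the 0.1 taken as pairing). Library 1 of either genotype also went with library 2 of the other, and 3 with 4 (r 0.0975 to 0.199), so the correlations follow a split of 1 and 2 against 3 and 4 as much as the number. In the other comparisons the correlations ran from -0.125 to 0.0361, so those numbers do not pair libraries.

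The genes followed and the lists were chosen with earlier results of these data known. Named genes are the 5 genes, 12 regulators and readouts given always, up to 4 called genes per list and comparison with the smallest adjusted p, and those most like a member in pattern (5 for each hormone, 3 for each receptor part). Which of these the text prints, and Trib3, Ddit3 and Cdkn1a in comparisons where the rule does not name them, was chosen after values were seen; calls that depend on 1 library are kept and given with that library.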

Additional observations from a re-analysis of the deposited data

Results flagged for a closer look

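In 5 of the 20 sets of 4 libraries (5 genes in 4 groups), 1 library stood apart from the other 3 by Dixon's criterion for 4 samples. The criterion was used on normalised reads, not on the log2 values of the tests. Its nominal rate of 1 in 20 assumes normally distributed values, which skewed reads need not follow. The count is therefore no measure of an excess over chance. Gdf15 had 1 low library in the KO ethanol group, at 412 normalised reads, and 1 high library in the KO control group, at 405. Fgf21 had 1 high library in the WT ethanol group, at 2497. Fgfr1 had 1 high library in the KO control group, at 226, and Fgfr4 had 1 high library in the KO control group, at 530.5. Library 1 was the high one for Gdf15 and Fgfr4 in the KO control group, and library 4 for Fgfr1.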

How the results depend on the processing

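The leave-out settings refit fewer samples, and splitting the ethanol libraries into 1 and 2 or 3 and 4 and blocking the ethanol groups alone were chosen after seeing the data. The split also follows the Klb values of the WT ethanol libraries, so Klb calls that compare those libraries are no independent test. For Gdf15, Fgf21 and Klb between KO and WT livers on ethanol, log2 values were -0.12, -0.44 and -0.026 with edgeR and -0.14, -0.45 and -0.039 with DESeq2; the cause was not tested. Without KO ethanol libraries 1 and 4 together, Gdf15 was -0.15 and Fgf21 -0.13 there, and Gdf15 with ethanol in KO livers was 2.02 (not called). With ethanol libraries 1 and 2 alone, Klb was 0.82 (called), Fgfr1 -0.024 and Fgfr4 0.039 between genotypes on ethanol, Klb -1.25 with ethanol in WT livers (called), Fgf21 2.00271 with ethanol in KO livers (called), and the differences of ethanol effects were 0.68 for Fgf21 and 1.63 for Klb (called). With libraries 3 and 4 alone, Gdf15, Fgf21 and Klb were -0.22, -0.76 and -0.66 between genotypes on ethanol, Gdf15 2.02 with ethanol in KO livers (not called), Ppara -0.17 there, and Klb 0.011, Fgfr1 0.61 and Fgfr4 -0.19 with ethanol in WT livers (none called).

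Klb on the control diet became called at -0.80 with a pseudocount of 4 and with DESeq2, and at -0.81 with the replicate block, with only the groups compared and with either pair of ethanol libraries. With the replicate block over all groups, Gdf15 on the control diet was 1.59 and called (adjusted p = 0.0388), although the numbers of the control groups do not pair. Between genotypes on ethanol the block changed no call of the 5 genes. Among the other genes named it ended there those of Furin and, on the ethanol groups alone, Fgfrl1. Over all groups it ended the calls of Ppara (adjusted p = 0.0564) and Cdkn1a (adjusted p = 0.0561) for the difference of ethanol effects. No variance trend ended these 2 as well (adjusted p = 0.0844 and 0.0733). With the block Cyp7a1 became called with ethanol in KO livers (adjusted p = 0.0435). With only the groups compared, Fgf21 with ethanol in KO livers was 1.85 and called; that setting gives the difference of ethanol effects no value of its own. Fgfr4 with ethanol in WT livers lost its call at -0.50 with no filter, no variance trend, the replicate block, only the groups compared, TMM scaling and without KO ethanol libraries 1 and 4, and at -0.47 with edgeR and with DESeq2.

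Genes called between genotypes on ethanol were 496 without KO ethanol libraries 1 and 4 and 434 with libraries 3 and 4 alone, against 1310. With ethanol in KO livers they were 1003 and 1370, against 2543, and in WT livers 3164 with libraries 3 and 4 alone, against 5032. For the difference of ethanol effects they were 16 with no variance trend, 24 with the replicate block, 30 with edgeR, 270 with DESeq2, 264 with libraries 1 and 2 alone and 0 with 3 and 4 alone or without KO ethanol libraries 1 and 4, against 46.

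Leaving out 1 library at a time gave these ranges. Between genotypes on ethanol, Gdf15 ran from -0.32 to 0.45, Fgf21 from -0.0024 to 1.35, Klb from -0.14 to 0.34 and Fgfr4 from -0.26 to 0.084. For the control diet, Gdf15 ran from 1.07 to 2.02 and Klb from -0.91 to -0.71. With ethanol in KO livers Fgf21 ran from 1.51 to 2.102, Fgfr1 from 0.53 to 0.95 and Ppara from -0.15 to 0.20. With ethanol in WT livers Klb ran from -0.87 to -0.40, Fgfr1 from 0.69 to 1.05 and Fgfr4 from -0.67 to -0.32. The differences of ethanol effects ran from -0.97 to 0.39 for Fgf21, -0.39 to 0.087 for Fgfr1 and -0.032 to 0.31 for Fgfr4. Genes called ran from 848 (without KO ethanol 3; 857 without WT ethanol 1) to 1685 between genotypes on ethanol, from 922 (without WT control 4) to 1691 on the control diet, and from 8 (without KO ethanol 1) to 215 (without WT ethanol 3) for the difference of ethanol effects. Gdf15 and Fgf21 with ethanol in WT livers, and Gdf15 with ethanol in KO livers, were called in each of these 16 refits.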

Other observations

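Of 19 other secreted liver hormones and stress factors, 5 rose and 2 fell with ethanol in KO livers, and 6 rose and 2 fell in WT livers. Over all genes 19.2% were called in KO and 38% in WT livers, and the WT counts lie near that share. Without KO ethanol library 1 the KO counts were 3 and 0, and without libraries 1 and 4 they were 0 and 0. In the latter setting calls over all genes fell to 1003 from 2543. Fst, the activin antagonist follistatin, rose by 1.96 on the log2 scale in KO livers (limma adjusted p = 0.00511), a call lost without KO ethanol libraries 1 and 4 (adjusted p = 0.0597). Igfbp1, a stress-responsive binding protein of insulin-like growth factors, rose by 4.16 in WT livers (limma adjusted p = 0.00102), and Inhbe, which encodes the hepatic hormone activin E, by 1.34 (limma adjusted p = 0.00533).

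Among the kinases that phosphorylate eIF2alpha, Eif2ak2 was higher in KO than in WT livers by 0.80 on ethanol (limma adjusted p = 0.000564) and by 0.75 on the control diet (limma adjusted p = 0.00123). Oma1, the mitochondrial protease that starts the relay to ATF4, fell with ethanol by 0.46 in KO livers and by 0.31 in WT livers (limma adjusted p = 0.00724 and 0.0324). The WT call of Oma1 was lost without WT ethanol library 1 or 3 or WT control library 1 or 4.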
